A study of Mus musculus with 5 samples.

Results

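Transcripts of lymphocytes and plasma cells were examined in whole thyroid glands of mice with an induced oncogenic Braf mutation, on chow or on a high fat diet. The 32 genes were chosen by name: 19 T cell genes, 5 B cell genes, 3 plasma cell genes and 5 genes shared by most leukocytes. Of these, 28 were among the 16413 genes of the deposited count table, and all 28 passed the filter on low counts that left 15765 genes for testing. The 4 that are not in the table used here are Cd79a and Pax5 of the B cell genes and Cd8b1 and Gzma of the T cell genes. The lowest count in that table was 1, so a gene without reads in some library would not be listed.

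The mice were of the line LSL-BrafV600E;TgCreERT2. A transcriptional stop keeps the mutant Braf allele silent until a tamoxifen-activated Cre, driven in this kind of line by the thyroglobulin promoter of thyroid follicular cells, removes it. Both groups received tamoxifen for 1 week at 8 weeks of age, and the labels record the mutation in both. From 10 to 22 weeks of age, for 12 weeks, the chow group (2 libraries, replicates 2 and 8) ate chow and the high fat diet group (3 libraries, replicates 2, 9 and 10) ate a high fat diet. No group without the mutation was analysed here, so the diets could be compared only in its presence. Whether replicate numbers stand for separate animals is not stated, so the spread behind the p-values may be technical.

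T cells read peptide antigens through a receptor whose signalling chains, CD3 delta, epsilon and gamma, are encoded by Cd3d, Cd3e and Cd3g. The co-receptors CD4 and CD8 bring the kinase Lck to the complex, and the kinase Zap70 and the adaptor Lat carry the signal on. B cells signal through the immunoglobulin-associated chains Cd79a and Cd79b, and plasma cells, their secreting descendants, fold and export antibody in an enlarged endoplasmic reticulum. In the thyroid, lymphocytes are best known from autoimmune thyroiditis, and they also infiltrate thyroid tumours.

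The upstream sequences of 5 genes are shown because these genes are described in the results below. Whether the sequences have a part in those results was not tested. They are the 250 bases before the RefSeq transcription start, 5′ to 3′ on the gene's own strand, from RefSeq on GRCm38.p6, the assembly that mm10 names. Of the 32 genes, 24 had an entry in the RefSeq promoter table. Derl3 (chr10:75893148-75893397, plus strand) and Creld2 (chr15:88819396-88819645, plus strand) are the genes with the library pattern described for the plasma cell group, and the capitals mark a match to the endoplasmic reticulum stress element, which is CCAAT and CCACG with a spacer of 9 bases of any kind between them.
Derl3: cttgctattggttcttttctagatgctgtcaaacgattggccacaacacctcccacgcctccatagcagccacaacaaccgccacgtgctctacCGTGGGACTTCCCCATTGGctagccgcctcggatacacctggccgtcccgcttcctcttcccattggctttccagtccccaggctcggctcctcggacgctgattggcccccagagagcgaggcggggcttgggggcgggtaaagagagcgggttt
Creld2: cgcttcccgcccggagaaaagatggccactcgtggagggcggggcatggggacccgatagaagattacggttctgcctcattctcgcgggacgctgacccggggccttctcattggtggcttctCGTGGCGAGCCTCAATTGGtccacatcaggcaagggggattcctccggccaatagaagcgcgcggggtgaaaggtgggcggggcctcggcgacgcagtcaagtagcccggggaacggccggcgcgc
The element was searched on both strands of these 250 bases in every gene of that table. It was found in 37 of 32851 windows (0.113%), and Derl3 was the only one of the 24 genes whose window held it. Both matches lie on the opposite strand, and they begin 156 bases before the start in Derl3 and 126 bases before it in Creld2. The element was chosen for the search after the expression values had been seen.

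The CD3 genes are shown because they lie side by side on chromosome 9 and ranked the libraries differently. Their upstream sequences are chr9:44980432-44980681 on the minus strand for Cd3g, chr9:44981536-44981785 on the plus strand for Cd3d and chr9:45009612-45009861 on the minus strand for Cd3e. The starts of Cd3g and Cd3d, which are transcribed away from each other, are 1355 bases apart, and those of Cd3d and Cd3e are 27825 bases apart. Capitals mark the E-box CAGGTG, on either strand.
Cd3g: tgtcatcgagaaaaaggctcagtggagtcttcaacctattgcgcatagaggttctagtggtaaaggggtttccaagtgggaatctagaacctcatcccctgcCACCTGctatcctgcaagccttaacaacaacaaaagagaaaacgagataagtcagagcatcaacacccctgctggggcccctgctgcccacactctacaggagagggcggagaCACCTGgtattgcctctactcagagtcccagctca
Cd3d: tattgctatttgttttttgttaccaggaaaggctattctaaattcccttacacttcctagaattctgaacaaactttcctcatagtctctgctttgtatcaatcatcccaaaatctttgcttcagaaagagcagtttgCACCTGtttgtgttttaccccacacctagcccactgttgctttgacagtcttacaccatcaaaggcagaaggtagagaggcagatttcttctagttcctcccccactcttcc
Cd3e: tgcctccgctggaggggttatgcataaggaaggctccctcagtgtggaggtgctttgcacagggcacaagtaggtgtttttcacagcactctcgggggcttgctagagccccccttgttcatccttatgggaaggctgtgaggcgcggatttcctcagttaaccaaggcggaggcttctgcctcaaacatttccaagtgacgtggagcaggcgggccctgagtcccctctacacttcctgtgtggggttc
Cd3g held 2 matches, Cd3d held 1 and Cd3e held 0 in the bases shown. The E-box was found in 17.2% of the 32851 windows and in 11 of the 24 genes matched here, and the octamer ATGCAAAT in 1.6% of all windows and in 0 of the 24.

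The libraries held 43494747 to 52663677 counts each, and the 28 genes together took 0.0297% to 0.0361% of them. Thyroglobulin alone took 10.9% to 22.1%, the highest share being in chow replicate 8 and the lowest in high fat diet replicate 10. High fat diet replicate 10 also held the most airway epithelium transcript, summed over 10 markers in CPM (counts per 1000000 of TMM-scaled library size). The airway sums were 1416 and 1780 CPM on chow, against 2056, 2657 and 7773 CPM. Of the last sum, 4638 CPM was a single gene, Muc5b, which stood at 75.7 and 92.4 CPM on chow and 106 and 159 CPM in high fat diet replicates 2 and 9. The 10 adipocyte markers summed to 196 and 209 CPM on chow, against 159, 146 and 114 CPM. Thyrocyte markers, again 10, summed to 190443 and 238206 CPM on chow, against 175809, 148030 and 104314 CPM, nearly all of it thyroglobulin. Chow replicate 8 held the least skeletal muscle transcript (692 against 1042 to 1954 CPM in the others) and the least erythroid transcript (31.8 against 62.5 to 103 CPM). Both libraries return in the results below, and the part that other tissue in the sample had in them was not tested. In RNA from whole tissue, fewer cells of a type and less RNA per cell cannot be told apart.

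Levels per transcript length were compared between genes as FPKM, averaged over the 5 libraries. Cd52, a small surface glycoprotein of leukocytes, was at 63.7 FPKM, Coro1a, an actin regulator, at 42.7 FPKM and Ptprc, the leukocyte phosphatase CD45, at 20.5 FPKM. These shared leukocyte genes stood at percentiles 95.4, 92.6 and 81.4 of the 16413 genes. The remaining shared genes were much lower, Ikzf1 at 4.19 FPKM and Cd37 at 1.70 FPKM. All measured T cell genes were below Cd52, Coro1a and Ptprc, but not all were below Ikzf1 and Cd37. The highest T cell gene was Il7r, at 4.90 FPKM. Cd3g was at 3.71 FPKM, Cd3e at 1.35 FPKM, Cd3d and Cd4 each at 1.19 FPKM and Cd8a at 0.28 FPKM. Of the B cell genes, Cd79b was at 3.26 FPKM, the lectin receptor Cd22 at 0.259 FPKM and Ms4a1, the surface protein CD20, at 0.0899 FPKM, which is percentile 2.41. Derl3 was at 17.9 FPKM, against 1.51 FPKM for Jchain, the joining chain of secreted antibody, and 0.839 FPKM for Mzb1, a folding factor of B and plasma cells.

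The names were checked against these levels. The T cell label rests on 17 measured genes, all 3 CD3 chains among them. The B cell label rests on 3 genes, of which Ms4a1 had only 2 to 18 counts in a library, and on neither Cd79a nor Pax5. Among 26 further B cell genes, 21 were listed, and among 21 further plasma cell genes 13 were. Of the 18 markers of immature thymocytes and thymic epithelium 11 were listed. Those listed included Foxn1, with 20 to 41 counts in a library, and Prss16, with 9 to 43. The recombinases Rag1 and Rag2, the pre-receptor chain Ptcra and the thymic regulator Aire were not listed. A gene that is not listed may still have had reads in some libraries, and the part of thymic tissue in the samples was not tested.

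**Figure D1:**
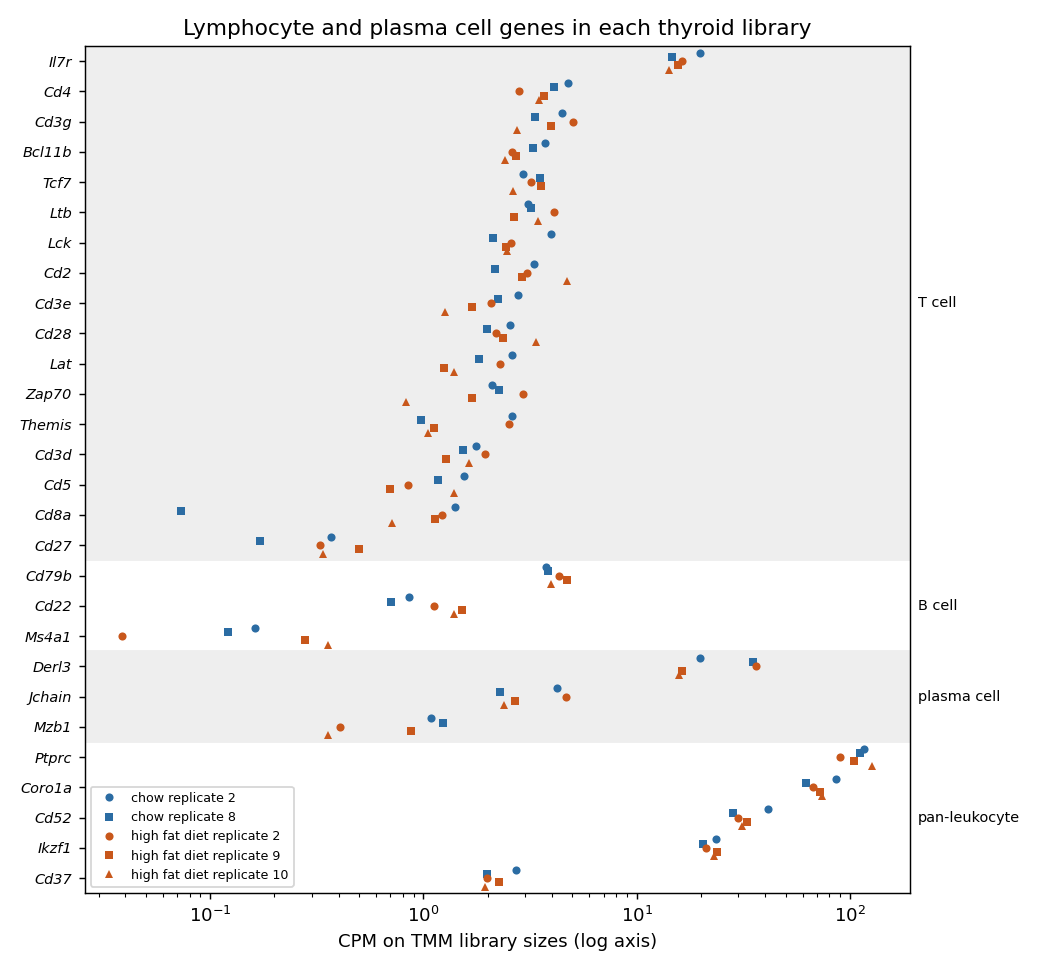
Level of each of the 28 genes in each of the 5 libraries, in CPM on a logarithmic axis, with colour for the diet and marker shape for the replicate within it. The points of the groups interleave for most genes, and Cd8a in chow replicate 8, at 0.073 CPM, stands far below its other 4 points.

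No lymphocyte or plasma cell gene passed the test between diets. In edgeR's quasi-likelihood fit, adjusted by the Benjamini-Hochberg method over 15765 genes, 0 of the 28 had an adjusted p under 0.05 in either direction, and the lowest was 0.908, for Mzb1. The background was also 0 genes, 0.0% of those tested, higher or lower. At an unadjusted p under 0.05, 855 genes (5.42%) were counted over the whole table, 465 of them higher (2.95%) on the high fat diet and 390 lower (2.47%). Among the 28 there was 1, Mzb1, which was lower. DESeq2 called 47 genes higher (0.298%) and 46 lower (0.292%), and 0 of the 28, while limma-voom called 0 genes.

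Of the 28 genes, 11 had a log2 fold change (high fat diet over chow) above 0 and 17 below 0, where 52.7% of all tested genes were above 0. The median over the 28 was -0.07, against 0.01 over all genes. The high fat diet libraries all lay above both chow libraries in 2 genes, Cd79b and Cd22, against a background of 10.6% of all genes. They all lay below in 4, Mzb1, Cd3e, Cd4 and Bcl11b, against a background of 10.3%. Counts of that size among 28 genes are near those shares. Summed tissue markers also differed between the diets. Thyrocyte and adipocyte sums were lower, and airway sums higher, in every high fat diet library than in both chow libraries. Thyroglobulin made up nearly all of the thyrocyte sum. Of the 10 thyrocyte markers, 3 were higher than chow in every high fat diet library and 3 lower, so that sum does not speak for the list. The part of sample makeup in the 6 genes was not tested.

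**Figure D2:**
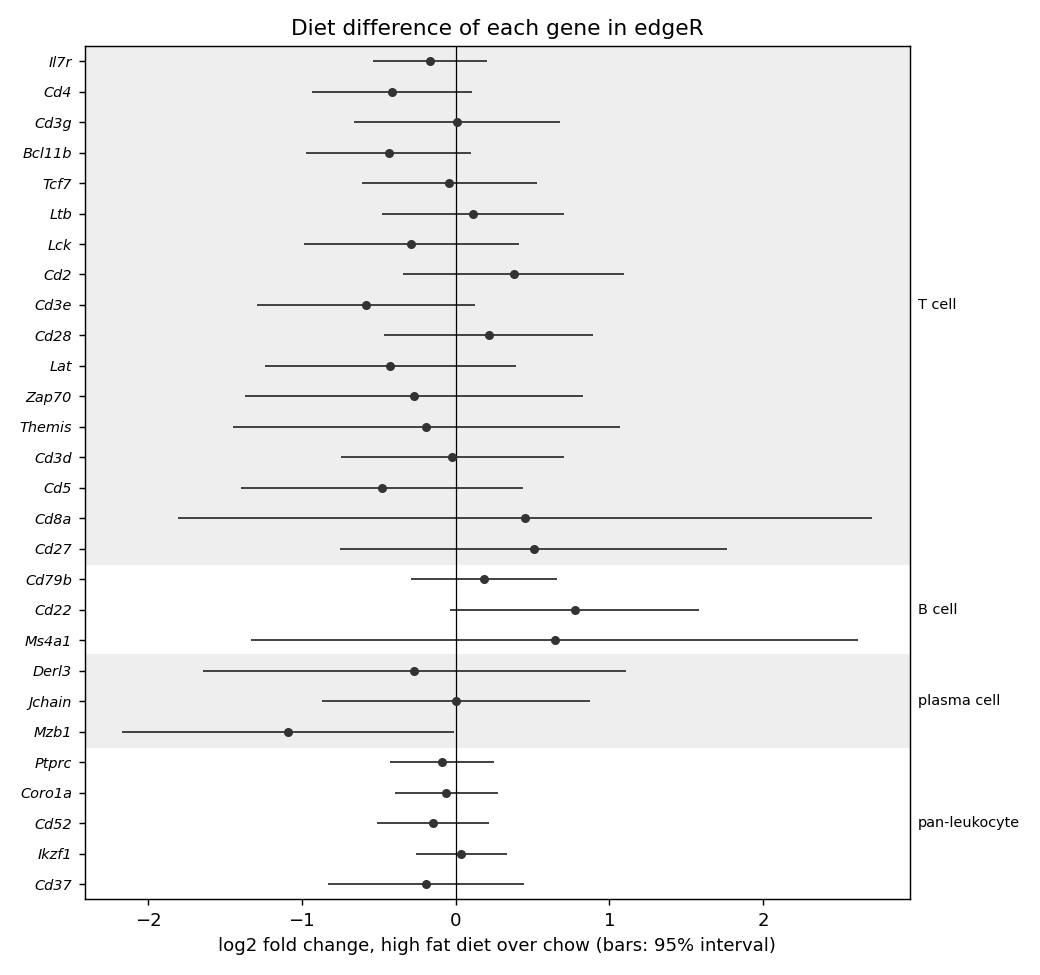
Log2 fold change of each of the 28 genes, high fat diet over chow, from edgeR, with its 95% interval, by cell class. The interval of Mzb1, -2.17 to -0.01, is the only one that does not reach 0, and it is not adjusted for the number of genes tested.

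Of the 3 CD3 chains, Cd3e alone had groups that do not overlap. Cd3e stood at 2.78 and 2.24 CPM on chow and at 2.07, 1.69 and 1.27 CPM on the high fat diet. Every high fat diet library was therefore below both chow libraries, with means of 2.51 ± 0.381 (SD, n = 2) and 1.68 ± 0.401 CPM (SD, n = 3). Its log2 fold change was -0.58 (SE 0.31), and the edgeR adjusted p was 0.952 (0.0955 unadjusted). Cd3g, its neighbour on chromosome 9 (44969572 to 44980431, minus strand, GENCODE on mm10), stood at 4.45 and 3.33 CPM on chow and at 5.0, 3.98 and 2.75 CPM in the high fat diet libraries. These groups overlap, and the log2 fold change was 0.01 (SE 0.29, 95% interval -0.66 to 0.68).

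Cd3d (chromosome 9, 44981786 to 44987339, plus strand) stood at 1.76 and 1.53 CPM on chow and 1.95, 1.27 and 1.64 CPM on the high fat diet. Its groups overlap too, at a log2 fold change of -0.02 (SE 0.32). Cd3e lies at 44998740 to 45009627 on the minus strand, so the order along the chromosome is Cd3g, Cd3d, Cd3e. High fat diet replicate 10 held the lowest level of Cd3e and Cd3g and high fat diet replicate 9 the lowest of Cd3d.

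The co-receptor Cd4 (chromosome 6, 124864692 to 124888221, minus strand) stood at 4.75 and 4.11 CPM on chow and at 2.82, 3.66 and 3.50 CPM in the high fat diet libraries. The groups do not overlap, with means of 4.43 ± 0.448 (SD, n = 2) and 3.33 ± 0.447 CPM (SD, n = 3). Its log2 fold change was -0.41 (SE 0.23), with an edgeR adjusted p of 0.966. Macrophages and dendritic cells can also carry Cd4. The 8 dendritic cell markers, all measured, summed to 154 and 128 CPM for chow against 114, 145 and 132 CPM for high fat diet, highest in chow replicate 2 and lowest in high fat diet replicate 2, as Cd4 was. The 14 macrophage markers, all measured, summed to 1778 and 1379 CPM for chow against 1467, 1592 and 2052 CPM for high fat diet. The part of either cell type in the Cd4 values was not tested.

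Cd8a (chromosome 6, 71373427 to 71379173, plus strand), the co-receptor chain of cytotoxic T cells, had 61 and 3 counts on chow and 63, 57 and 36 counts on the high fat diet. In CPM these were 1.41 and 0.073, against 1.22, 1.14 and 0.712. A single library, chow replicate 8, stood apart, and the chow libraries lay on either side of all 3 high fat diet libraries. The level in chow replicate 2 was 19.3 times that in chow replicate 8 (exact 95% interval of the ratio of counts 6.31 to 96.4, counting error only). The log2 fold change of 0.45 had an SE of 0.93. It was 3.76 without chow replicate 2 and -0.46 without chow replicate 8, so this gene gives no direction for the diet.

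Not every T cell gene was low with Cd8a in chow replicate 8. Its ratio of Cd4 to Cd8a counts was 56.3, where the other 4 libraries had ratios of 2.32 to 4.92. In chow replicate 8, Cd3e, Cd3g and Cd4 were each within the range of the other 4 libraries. That library was still the lowest in 6 of the 17 T cell genes, against 20.2% of all tested genes. These were Cd8a, Lck, Themis, Cd2, Cd27 and Cd28. Cd8b1, the gene of the partner chain, is not in the table used here, so it could not be set beside Cd8a.

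In the 4 signalling genes downstream of the receptor the groups overlap. Lck, the kinase that co-receptors carry, stood at 3.96 and 2.12 CPM on chow and 2.59, 2.43 and 2.45 CPM in the high fat diet libraries. The adaptor Lat stood at 2.59 and 1.83 CPM, against 2.30, 1.25 and 1.38 CPM. Themis, a regulator of T cell selection in the thymus, stood at 2.59 and 0.974 CPM, against 2.53, 1.12 and 1.05 CPM. In all 3 genes chow replicate 2 was the highest library, and the groups overlap.

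Zap70, the kinase that binds phosphorylated CD3 chains, stood at 2.11 and 2.26 CPM on chow and at 2.92, 1.69 and 0.831 CPM in the high fat diet libraries. The spread within the high fat diet group was 3.51-fold from replicate 10 to replicate 2 (exact 95% interval 2.48 to 5.07, counting error only), wider than between any of its libraries and chow. The log2 fold changes were -0.29 (SE 0.31) for Lck, -0.42 (SE 0.36) for Lat, -0.19 (SE 0.54) for Themis and -0.27 (SE 0.48) for Zap70. The median over the 9 receptor and signalling genes was -0.27, with 2 above and 7 below 0. Their summed level was 26.4 and 18.5 CPM on chow and 23.4, 18.2 and 15.6 CPM on the high fat diet.

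Of 6 surface and cytokine genes of T cells, 4 had a log2 fold change above 0, and 0 passed the test. Cd2, an adhesion receptor shared with natural killer cells, stood at 3.31 and 2.17 CPM on chow and at 3.07, 2.89 and 4.73 CPM on the high fat diet. Cd28, the co-stimulatory receptor, stood at 2.55 and 2.0 CPM, against 2.18, 2.37 and 3.36 CPM. High fat diet replicate 10 was the highest library in both, while it was the lowest in Cd3e, Cd3g and Zap70. Their log2 fold changes were 0.38 (SE 0.32) and 0.22 (SE 0.30).

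Cd5, a receptor that dampens antigen receptor signals, stood at 1.55 and 1.17 CPM on chow and 0.850, 0.697 and 1.38 CPM on the high fat diet. Il7r, the receptor for the survival cytokine interleukin 7, was the most abundant of the T cell genes per length, at 4.90 FPKM. It stood at 19.8 and 14.7 CPM on chow and 16.3, 15.6 and 14.2 CPM on the high fat diet, at a log2 fold change of -0.17 (95% interval -0.54 to 0.20). Ltb, a lymphotoxin that shapes lymphoid tissue, stood at 3.10 and 3.19 CPM, against 4.10, 2.67 and 3.44 CPM. Cd27, a co-stimulatory receptor, had only 7 to 25 counts in a library, and 5.54% of its exonic bases overlap the gene of a microRNA, Mir8113. The median over these 6 genes was 0.16, with 4 above and 2 below 0.

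Both T lineage transcription factors were near or below their chow level. Bcl11b (chromosome 12, 107910403 to 108003602, minus strand), which holds cells in the T lineage, stood at 3.73 and 3.26 CPM on chow and at 2.61, 2.73 and 2.41 CPM in the high fat diet libraries. The groups do not overlap, with means of 3.49 ± 0.330 (SD, n = 2) and 2.58 ± 0.159 CPM (SD, n = 3). The log2 fold change of -0.44 (SE 0.23) had an edgeR adjusted p of 0.954. Tcf7, which acts early in the same lineage, stood at 2.94 and 3.50 CPM, against 3.21, 3.56 and 2.63 CPM, with overlapping groups. In the authors' deposited table, Bcl11b, Cd4 and Cd22 were the 3 of the 28 genes with an unadjusted p-value under 0.05 (0.00932, 0.0117 and 0.0182). Each had an adjusted p-value of 0.971, which was also the lowest over all genes there. The share of all genes under 0.05 in the authors' comparison is not given here, so the 3 genes have no background beside them.

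Over the 17 T cell genes, the summed level was 56.2 ± 10.7 CPM on chow (SD, n = 2) and 51.1 ± 4.32 CPM on the high fat diet (SD, n = 3), a ratio of 0.91. The chow libraries, at 63.7 and 48.6 CPM, enclose the high fat diet libraries at 56.0 and 49.2 CPM, and only replicate 10, at 48.0 CPM, lies just outside. The median log2 fold change was -0.17 (range -0.58 to 0.51), with 6 genes above and 11 below 0. It was 0.08 without chow replicate 2 and -0.36 without chow replicate 8. Chow replicate 2 was the highest of the 5 libraries in 9 of the 17 genes.

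**Figure D3:**
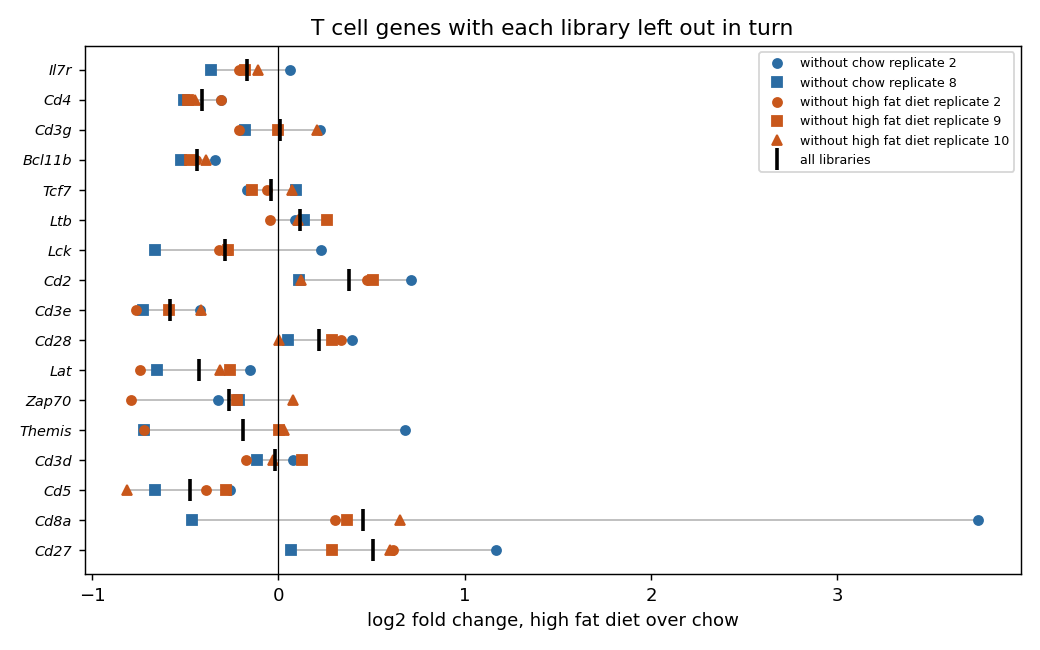
Log2 fold change of each of the 17 T cell genes, high fat diet over chow, with all 5 libraries and with each library left out in turn. Cd8a moves from -0.46 to 3.76 and Themis from -0.72 to 0.68, whereas Cd3e (-0.76 to -0.42), Cd4 (-0.51 to -0.31) and Bcl11b (-0.53 to -0.34) stay below 0 in all 5.

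Further T cell genes, from a list of 39 of which 35 were tested, gave 0 calls. At an unadjusted p under 0.05 there was 1 higher and 0 lower, and the median log2 fold change was -0.08. The one higher was Rhoh, an adaptor-like GTPase of blood cells, at 2.92 and 2.17 CPM on chow and 3.69, 4.0 and 4.02 CPM on the high fat diet (log2 fold change 0.62, edgeR adjusted p 0.856). The inhibitory receptor Pdcd1 stood at 1.6 and 1.53 CPM, against 1.06, 1.21 and 0.989 CPM. Cd6 and Runx3 also lay below chow in every high fat diet library, at log2 fold changes of -0.71 and -0.34. None of these passed after adjustment.

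Of 18 genes of natural killer and cytotoxic cells, 13 were tested, and 0 were called, with 1 higher and 1 lower at an unadjusted p under 0.05. The one lower was the killer cell receptor Klre1, with 19 and 11 counts on chow and 7, 5 and 3 counts on the high fat diet (log2 fold change -1.82, edgeR adjusted p 0.801). The one higher was the protease Ctsw of cytotoxic cells, at 3.50 and 4.11 CPM against 6.67, 7.77 and 4.67 CPM (log2 fold change 0.74, edgeR adjusted p 0.801). In both the groups do not overlap, and they point in opposite directions. The median over the 13 was -0.22.

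All 3 measured B cell genes had a higher mean on the high fat diet, none past the test. Cd22 (chromosome 7, 30865402 to 30880342, minus strand), an inhibitory lectin of B cells, stood at 0.857 and 0.706 CPM on chow and at 1.12, 1.51 and 1.38 CPM in the high fat diet libraries. The groups do not overlap, with means of 0.781 ± 0.107 (SD, n = 2) and 1.34 ± 0.200 CPM (SD, n = 3). Its log2 fold change was 0.77 (SE 0.36, 95% interval -0.04 to 1.59), and the edgeR adjusted p was 0.910 (0.0586 unadjusted). In the annotation 9.50% of its exonic bases overlap a gene on the opposite strand, Gm29439, and whether counting used strand is not given in the sources used here.

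Cd79b stood at 3.77 and 3.82 CPM on chow and at 4.31, 4.70 and 3.96 CPM on the high fat diet. Every high fat diet library was above both chow libraries, by little: the log2 fold change was 0.19 (SE 0.21, 95% interval -0.29 to 0.66). Ms4a1 had 7 and 5 counts on chow and 2, 14 and 18 counts on the high fat diet, so both the lowest and the highest library were on the high fat diet. Its log2 fold change was 0.65, with an SE of 0.87. The summed level of the 3 genes was 4.72 ± 0.102 CPM on chow (SD, n = 2) and 5.89 ± 0.537 CPM on the high fat diet (SD, n = 3), a ratio of 1.25.

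The median over the 3 B cell genes was 0.65 by edgeR, the value of Ms4a1, and 0.18 by limma-voom, the value of Cd79b. Among 26 further B cell genes, 20 were tested and 0 were called. At an unadjusted p under 0.05 there were 2 higher, Vpreb3 (0.91) and Spib (0.64), and 2 lower, Cd40 (-0.61) and Swap70 (-0.25), and the median of the 20 was -0.03. The 21 further B cell genes listed summed to 207 and 199 CPM for chow against 184, 186 and 175 CPM for high fat diet, a ratio of 0.896, so this sum was lower in every high fat diet library while that of Cd79b, Cd22 and Ms4a1 was higher in every one. Spib encodes a transcription factor of B cells and other lineages. Cd40, the receptor for T cell help, stood at 11.8 and 9.88 CPM on chow and at 8.96, 6.27 and 6.09 CPM on the high fat diet.

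Of the 3 plasma cell genes, 0 passed the test. Mzb1 had 47 and 51 counts on chow and 21, 44 and 18 counts on the high fat diet. In CPM these were 1.09 and 1.24, against 0.406, 0.876 and 0.356, so every high fat diet library was below both chow libraries, replicate 9 the nearest. The means were 1.16 ± 0.108 CPM (SD, n = 2) and 0.546 ± 0.287 CPM (SD, n = 3), a ratio of 0.469. The log2 fold change was -1.09 (SE 0.47, 95% interval -2.17 to -0.01), with an unadjusted p of 0.0480 and an adjusted p of 0.908 by edgeR. Its annotated exons overlap another gene annotation on the same strand over 57.2% of their bases, so how its reads were assigned is uncertain.

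Jchain stood at 4.21 and 2.29 CPM on chow and at 4.68, 2.69 and 2.39 CPM on the high fat diet. Chow replicate 2 and high fat diet replicate 2 were the high libraries, and the groups overlap. Both means were 3.25 CPM (SD 1.36, n = 2, and SD 1.24, n = 3), with a 95% interval of the log2 fold change from -0.87 to 0.87. The interval leaves room for a change of up to that size in either direction. It is not adjusted for the number of genes tested and does not mark the smallest change that would have been called.

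Derl3 (chromosome 10, 75893413 to 75895941, plus strand), a factor that moves misfolded proteins out of the endoplasmic reticulum, stood at 19.8 and 35.2 CPM on chow and at 36.4, 16.4 and 15.8 CPM in the high fat diet libraries. The high pair, chow replicate 8 and high fat diet replicate 2, crosses the diets, and its mean was 2.07 times that of the other 3 libraries. The log2 fold change between diets was -0.27 (SE 0.51). Derl3 made up most of the summed level of the 3 plasma cell genes, 25.1 and 38.8 CPM on chow and 41.4, 20.0 and 18.6 CPM on the high fat diet. Without it the sums were 5.30 and 3.53 CPM, against 5.08, 3.56 and 2.75 CPM, and the median log2 fold change went from -0.27 to -0.54.

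The same pair of libraries was the highest in 2 of the 28 genes, Derl3 and Zap70, against a background of 9.69% of all genes. Among the 13 further plasma cell genes tested it was the highest in 1, Creld2, an endoplasmic reticulum protein, at 88.1 and 149 CPM on chow and 183, 89.7 and 87.3 CPM in the high fat diet libraries. The mean of the pair over that of the other 3 libraries was 1.88 for Creld2, 1.12 for Jchain, 1.06 for Mzb1 and 1.015 for Xbp1, the transcription factor of the secretory programme.

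A list of 14 genes of protein folding and disposal in the endoplasmic reticulum was added after these values had been seen. The pair was the highest in 13 of the 14, the exception being Edem1. Hspa5, the main chaperone of that compartment, stood at 1041 and 1404 CPM on chow and at 2001, 1110 and 1200 CPM in the high fat diet libraries. The mean of the pair was 1.52 times that of the others for Hspa5, 1.57 times for Pdia4, a disulfide isomerase, and 1.67 times for Sdf2l1, a chaperone partner. The stress element shown above for Derl3 and Creld2 was found in 5 of the 11 genes of this added list with a RefSeq window. They were Calr, Dnajc3, Hsp90b1, Hspa5 and Pdia6. Because the pair and the list were chosen from these data, this is a description with no test.

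**Figure D4:**
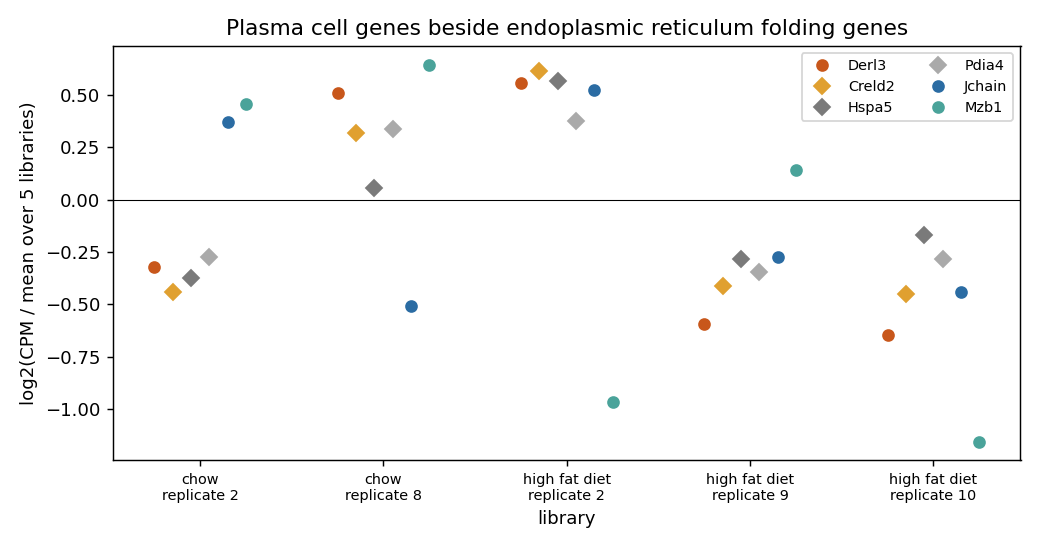
Level in each library relative to the gene's mean over the 5 libraries, for the plasma cell genes Derl3, Jchain and Mzb1 (circles) and the endoplasmic reticulum genes Creld2, Hspa5 and Pdia4 (diamonds). Derl3 and the diamonds are high in chow replicate 8 and high fat diet replicate 2, and Jchain and Mzb1 are not high in both.

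Of 21 further plasma cell genes 13 were tested and 0 were called, with 1 higher at an unadjusted p under 0.05 and a median of 0.01. That gene was Sdc1, the proteoglycan CD138, a marker of plasma cells that epithelial cells also carry. It stood at 67.4 and 87.2 CPM on chow and at 130, 142 and 163 CPM on the high fat diet (log2 fold change 0.91, SE 0.15, edgeR adjusted p 0.198). No other gene on the list was higher at that level, and Jchain and Mzb1 did not follow it. Prdm1, the transcription factor of plasma cell identity, stood at 12.4 and 12.3 CPM, against 12.0, 10.2 and 9.85 CPM.

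Of the 5 genes shared by most leukocytes, 0 passed the test. Ptprc (chromosome 1, 138062861 to 138175708, minus strand) stood at 116 and 112 CPM on chow and at 89.8, 104 and 128 CPM in the high fat diet libraries. Its log2 fold change was -0.09, with a 95% interval from -0.42 to 0.25. Ikzf1, the transcription factor Ikaros, stood at 23.6 and 20.4 CPM, against 21.1, 23.7 and 23.0 CPM, with an interval from -0.26 to 0.33. Both intervals leave room for a change of up to those sizes.

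Coro1a stood at 86.4 and 62.0 CPM on chow and at 66.9, 72.6 and 74.2 CPM on the high fat diet. Cd52 stood at 41.2 and 28.3 CPM, against 29.9, 32.8 and 31.3 CPM, and 14.5% of its exonic bases overlap Crybg2 on the opposite strand. Cd37, a tetraspanin of lymphocytes, stood at 2.71 and 2.0 CPM, against 1.99, 2.25 and 1.94 CPM. In each of these 3 genes chow replicate 2 was the highest library, and the groups overlap. The 5 shared genes summed to 247 ± 32.4 CPM on chow (SD, n = 2) and 234 ± 24.1 CPM on the high fat diet (SD, n = 3), a ratio of 0.948.

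**Figure D5:**
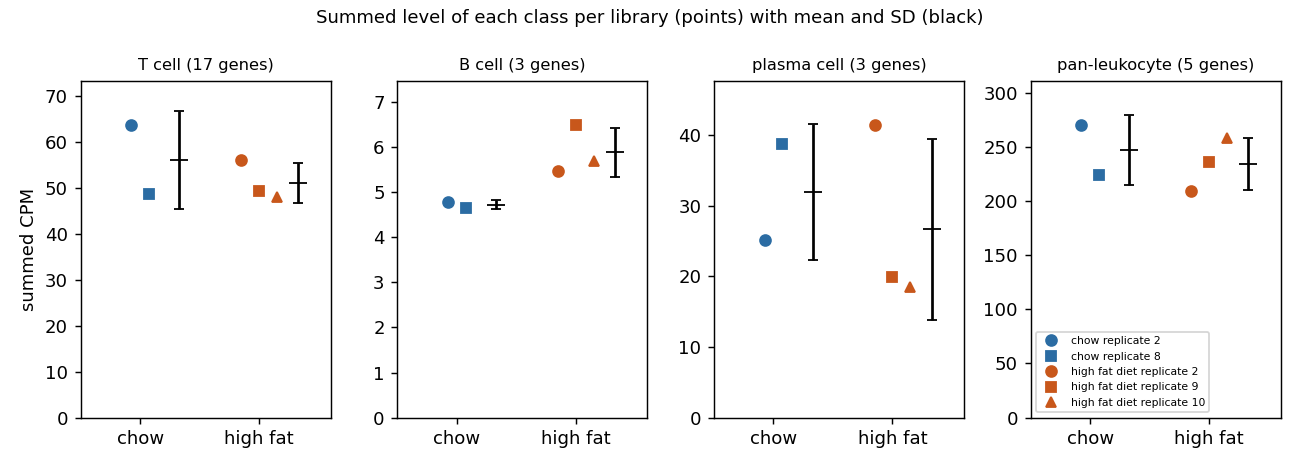
Summed CPM of the T cell (17 genes), B cell (3), plasma cell (3) and shared leukocyte (5) genes in each library, with the mean of each diet and bars of 1 SD. The groups overlap in the T cell, plasma cell and shared classes, and in the B cell class the high fat diet libraries (5.47 to 6.49 CPM) lie above the chow libraries (4.65 and 4.79 CPM).

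The T cell receptor genes were also set against the shared leukocyte genes within each library. Their sum was 9.77% and 8.23% of the shared sum on chow, against 11.2%, 7.74% and 6.04% on the high fat diet, so the highest and the lowest library were both on the high fat diet. Other leukocytes contribute to the shared genes. The macrophage markers, 14 of 14 measured, had a median log2 fold change of 0.08, and the dendritic cell markers, 8 of 8 measured, one of -0.09. Neutrophil markers, 7 of 9 measured, summed to 53.1 and 43.3 CPM on chow and 41.3, 56.3 and 74.1 CPM on the high fat diet. None of the genes on these 3 lists was called.

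Across the 28 genes, chow replicate 2 was the highest library in 12, where it was the highest in 18.0% of all tested genes. Chow replicate 8 was the highest in 1 (17.4% of all genes) and the lowest in 11 (20.2%). High fat diet replicates 2, 9 and 10 were the highest in 6, 5 and 4 genes (19.8%, 15.1% and 29.7% of all genes). High fat diet replicate 10 was the lowest in 9 (28.2%), and chow replicate 2, high fat diet replicate 2 and high fat diet replicate 9 in 1, 3 and 4 (18.7%, 19.3% and 13.6%). The chow pair therefore differed from each other for these genes, and leaving out one or the other moved the shared leukocyte median from -0.09 to 0.14 (without replicate 2) or to -0.28 (without replicate 8). In the same libraries the macrophage sum was 1778 CPM in chow replicate 2 and 1379 CPM in chow replicate 8, the lowest of the 5, and the part of sample makeup in this was not tested.

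Genes of lymphoid stroma and homing were measured for 10 of 12 on the list, with 0 called. Cxcl13, the chemokine that draws B cells into follicles, stood at 6.04 and 10.2 CPM on chow and at 3.77, 5.02 and 3.21 CPM on the high fat diet. Its groups do not overlap, and its log2 fold change of -1.03 (SE 0.28) had an edgeR adjusted p of 0.618. Ccl21a, a chemokine that guides T cells, stood at 0.486 and 30.4 CPM on chow and at 0.522, 0.398 and 33.5 CPM on the high fat diet. It was high in 1 library of each diet, and near-identical copies of it in the genome make its counts uncertain. No CD3 gene was highest in either of these libraries.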

How the data were processed

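Total RNA from mouse thyroid was made into stranded libraries, per the labels' protocols. The submitters' processing notes name HISAT2, StringTie, DESeq2 and mm10, and do not say which step each served. Per the file headers and labels, the authors deposited read counts and FPKM values per gene, and, per the file headers, a signed fold score and p-values for the diets, chow over high fat diet. A further 3 columns of per-sample values match none of the 5 samples and stayed out of every step. The labels write the high fat diet with another middle letter than the columns do, and samples were matched by diet and number.

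Counts were fitted with edgeR 4.0.16 in R 4.3.3 (TMM factors, filterByExpr, robust quasi-likelihood) on diet alone. The filter removed 648 genes, and the Benjamini-Hochberg adjustment ran over the remaining 15765 with a threshold of 0.05. CPM use TMM-scaled library sizes. The common biological coefficient of variation was 18.8%. The fits were tested on simulated counts. Intervals are at 95%, and those of ratios of counts cover counting error only. Alternatives were other factors and filters, DESeq2 1.42.0, limma-voom and limma 3.58.1 on log2(FPKM + 1) or log2(FPKM + 0.1), and leaving out each library; the plasma cell list without Derl3 was added after the values were seen.

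The genes and lists were chosen with earlier results of these data known. Every one of the 28 measured genes is named. Of each other list at most 4 genes of smallest p are named, apart from genes chosen after their values were seen. Those are thyroglobulin, Creld2, Xbp1, Ccl21a, Ebf1, Muc5b, Foxn1 and the endoplasmic reticulum genes. Positions come from GENCODE.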

Additional observations from a re-analysis of the deposited data

How the results depend on the processing

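With every alternative fit run, 0 of the 28 genes were called, and the lowest adjusted p of any of them was 0.507. Over all genes, DESeq2 called 93 genes, and leaving out a library gave 0 to 5 calls (2 without chow replicate 2, 5 without chow replicate 8, 3 without high fat diet replicate 2). No paired analysis was possible because the groups share fewer than 2 replicate numbers. Of 387 values of single genes under the alternatives, 34 had the other sign, from 16 genes, and 12 genes kept their sign in all that were run. Jchain was -0.0028 with RLE factors, -0.0011 with upper-quartile factors, -0.0026 with DESeq2 and -0.0031 with limma-voom, all near 0. With FPKM + 1 and FPKM + 0.1, Cd3d was 0.028 and 0.043, Tcf7 0.020 and 0.032, and Coro1a 0.040 and 0.042, and with limma-voom Cd3g was -0.022. The B cell median was 0.18 with limma-voom, 0.16 with FPKM + 1 and 0.26 with FPKM + 0.1.

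With 1 library left out, the medians of log2 fold changes ran from -0.36 to 0.077 for T cell, 0.40 to 0.89 for B cell, -0.78 to -0.060 for plasma cell and -0.28 to 0.14 for shared genes. Single genes ran from -0.37 to 0.50 for Jchain, -0.78 to 0.21 for Derl3, -0.18 to 0.13 for Cd3d, -0.21 to 0.23 for Cd3g, -0.46 to 3.76 for Cd8a, -0.67 to 0.23 for Lck, -0.79 to 0.078 for Zap70 and -0.72 to 0.68 for Themis. Il7r ran from -0.36 to 0.059, Ltb from -0.044 to 0.26, Tcf7 from -0.17 to 0.095, Ptprc from -0.23 to 0.023, Ikzf1 from -0.062 to 0.14, Cd37 from -0.39 to 0.040, Cd52 from -0.39 to 0.14 and Coro1a from -0.28 to 0.20. Where 1 chow library was left, it was assumed to vary like the other group. Ms4a1 could not be fitted without high fat diet replicate 9 or 10, and Ms4a1, Cd8a and Cd27 fell under the stricter filter. The causes were not tested.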
